A study of Mus musculus with 7 samples.

Results

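Genes of the choroid plexus epithelium were followed in RNA precipitated with tagged ribosomes from mouse medial prefrontal cortex (mPFC). The members were 9 genes given by name (Ttr, Folr1, Clic6, Kl, Otx2, Aqp1, Kcne2, Kcnj13 and Enpp2), matched exactly to the gene symbols of the array's annotation. Of these, 7 had a probe set of their own, out of 22180 genes measured. Kcnj13 lay on a probe set that also carries the symbol Gigyf2, and Enpp2 was not listed in the annotation used here. The series holds 7 one-colour Affymetrix arrays. All mice carried a GFP-tagged ribosome (TRAP) and an ArcCre transgene, in which the activity-regulated gene Arc directs the Cre recombinase, and all received tamoxifen, so that cells active in that window took up the tag. The 4 cocaine-activated arrays (numbered 4, 5, 6 and 7 in their titles) come from mice given 15 mg/kg cocaine on 2 days, and the 3 shock-activated arrays (4, 5 and 6) from mice given 20 shocks of 2 s at 0.5 mA on 2 days. Ribosomes were pulled down with an anti-GFP antibody. The sources used here do not give age, sex, the number of animals behind an array or whether animals were pooled. Neither precipitates of untreated mice nor RNA from before the precipitation were analysed here. Whether the RNA of the members came from tagged cells was therefore not tested.

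The choroid plexus is a vascular tuft in the brain's ventricles whose epithelium secretes cerebrospinal fluid (CSF). It is not part of the cortex. Its epithelial cells make transthyretin (Ttr) in very large amounts and carry a characteristic set of channels, transporters and receptors, several of them on the face towards the fluid. Because Ttr is so abundant there, its RNA is widely used as a marker of plexus tissue in brain dissections. The label of the set, a tracer of dissection, was therefore held against the other genes of that epithelium and against genes of neighbouring tissues.

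Levels are log2 values as deposited, so a step of 1 is a doubling. They compare arrays for the same probe set, and not genes with each other. A gene is called dim where its mean over the 7 arrays was at or under 5.44, the 95th percentile of olfactory and vomeronasal receptor genes, which stand in for background. Ttr, Kl, Clic6 and Aqp1 lay above that level, and Kcne2, Folr1 and Otx2 were dim. The quartiles of the 7 arrays were nearly equal, 55.9% of all probe sets had an identical value on at least 2 arrays, and cocaine array 6 lay farthest from the others, at a mean Euclidean distance of 37.2 against 27.5 to 29.6 for the other 6 arrays.

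RefSeq promoter sequences (GRCm38.p6) were read for 5 of the 9 members. None was read for Ttr, Folr1, Clic6 or Enpp2, and member windows on the chromosome that carries Ttr were left out. The 250 bases upstream of a start of Kl and Kcne2, the members whose order over the arrays came closest to that of Ttr, are shown with one of the 4 upstream windows of Otx2, the transcription factor of the set. Capitals mark the letters TAATCC or their reverse complement GGATTA, the core to which OTX-type homeodomains bind.
Kl (chr5:150952357-150952606, plus strand): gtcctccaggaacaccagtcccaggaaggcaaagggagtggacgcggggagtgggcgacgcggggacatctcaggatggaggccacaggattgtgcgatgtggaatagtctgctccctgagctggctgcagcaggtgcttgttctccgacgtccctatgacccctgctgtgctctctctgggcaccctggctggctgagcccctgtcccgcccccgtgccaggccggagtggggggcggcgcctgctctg
Kcne2 (chr16:92292139-92292388, plus strand): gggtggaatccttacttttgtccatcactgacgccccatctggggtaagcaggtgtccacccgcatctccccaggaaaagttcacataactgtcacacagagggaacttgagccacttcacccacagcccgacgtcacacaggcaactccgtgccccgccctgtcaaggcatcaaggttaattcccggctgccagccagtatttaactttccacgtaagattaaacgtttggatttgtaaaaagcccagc
Otx2 (chr14:48665110-48665359, minus strand): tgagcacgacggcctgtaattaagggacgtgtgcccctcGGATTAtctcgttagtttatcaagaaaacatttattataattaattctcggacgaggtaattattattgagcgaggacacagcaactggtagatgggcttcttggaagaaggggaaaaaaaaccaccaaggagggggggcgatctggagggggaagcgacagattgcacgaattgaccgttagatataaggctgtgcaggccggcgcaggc
Neither the Kl nor the Kcne2 window held these letters, and the Otx2 window held them once, starting 211 bases before the start. Among the 9 windows read for these 5 members, that was the 1 match. Of the 32851 RefSeq windows of the same length, with no chromosome left out, 6.25% held the letters on either strand. Kcne2 and Clic6 lie on chromosome 16 with 5 protein-coding genes between them, and Folr1 is the direct neighbour of its relative Folr2 on chromosome 7.

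Ttr (probe set 17348833, Entrez 22139), which encodes the carrier of thyroxine and of retinol-binding protein in blood and CSF, differed most among the arrays. In the cocaine group it measured 10.45 on array 4, 10.22 on array 5, 7.58 on array 6 and 7.17 on array 7. In the shock group it measured 11.13 on array 4, 8.40 on array 5 and 10.40 on array 6. Each group thus held both high and low arrays, and the groups overlapped. From cocaine array 7 to shock array 4 the level spanned 3.95 on the log2 scale, which is 15.5-fold. No array lay between 8.40 and 10.22, so that 3 arrays stood below and 4 above a gap of 3.51-fold. Of the sum of squares of Ttr over the arrays, 14.5% lay between the groups and the rest within them.

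**Figure D1:**
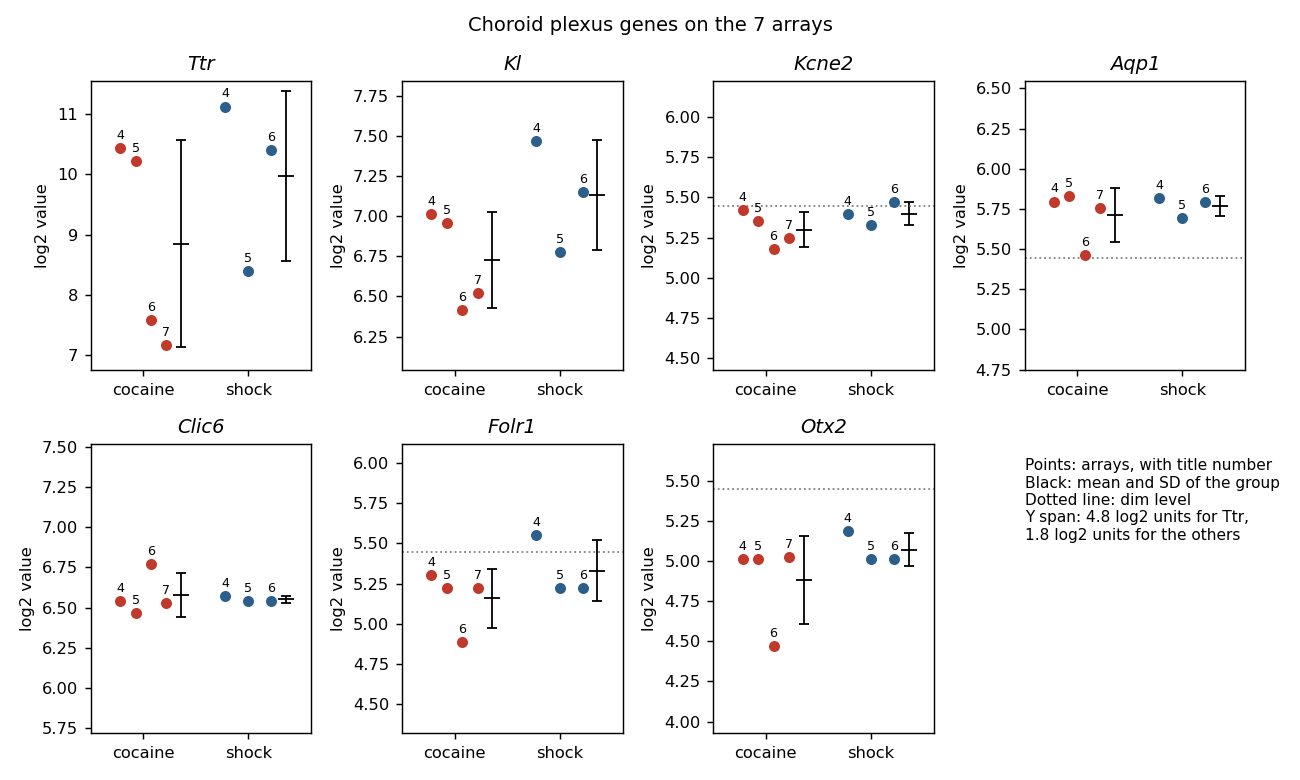
Log2 value of each of the 7 measured choroid plexus genes (y axis, centred on each gene and wider for Ttr than for the others) on each cocaine-activated (red) and shock-activated (blue) array, with its title number; black bars give the group mean and SD, and the dotted line the dim level of 5.44. Ttr spans 7.17 to 11.13, and in every panel the groups overlap.

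Kl (probe set 17445238, Entrez 16591) encodes klotho, a membrane and secreted protein that acts as a co-receptor for fibroblast growth factor 23 and is made in kidney and choroid plexus. It measured 7.01, 6.96, 6.42 and 6.52 on cocaine arrays 4, 5, 6 and 7, and 7.46, 6.78 and 7.15 on shock arrays 4, 5 and 6. The 3 arrays lowest for Kl were the 3 lowest for Ttr, and shock array 4 was highest for both. The span of Kl was 1.05, or 2.07-fold. Klotho RNA is known from some neurons too.

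Among the channels, Kcne2 (probe set 17327218, Entrez 246133), a small subunit that pairs with potassium channels in the plexus's fluid-facing membrane, measured 5.42, 5.36, 5.18 and 5.25 on cocaine arrays 4, 5, 6 and 7. On shock arrays 4, 5 and 6 it measured 5.40, 5.33 and 5.47. Cocaine arrays 6 and 7 and shock array 5 were lowest, as for Ttr, within a span of only 0.29. Aqp1 (probe set 17458813, Entrez 11826), the water channel of the same membrane, measured 5.80, 5.83, 5.46 and 5.75 on cocaine arrays 4, 5, 6 and 7 and 5.82, 5.70 and 5.79 on shock arrays 4, 5 and 6. Its low array was cocaine array 6, and the other 6 arrays lay within 5.70 to 5.83. Clic6 (probe set 17327236, Entrez 209195), of the chloride intracellular channel family, measured 6.54, 6.47, 6.77 and 6.53 on cocaine arrays 4, 5, 6 and 7. On shock arrays 4, 5 and 6 it measured 6.57, 6.54 and 6.54. Here cocaine array 6 was the highest instead of the lowest, and 3 arrays had an identical value.

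Folr1 (probe set 17493956, Entrez 14275) encodes the folate receptor that carries folate across the plexus into the CSF. It measured 5.30, 5.22, 4.89 and 5.22 on cocaine arrays 4, 5, 6 and 7 and 5.55, 5.22 and 5.22 on shock arrays 4, 5 and 6. Shock array 4 was highest, cocaine array 6 lowest, and 4 arrays had an identical value. Otx2 (probe set 17305830, Entrez 18424), the homeodomain factor needed to form and maintain the plexus, measured 5.01, 5.01, 4.47 and 5.03 on cocaine arrays 4, 5, 6 and 7. On shock arrays 4, 5 and 6 it measured 5.19, 5.01 and 5.01. It too had an identical value on 4 arrays, with shock array 4 above them and cocaine array 6 below. All 7 members lay above their own mean on shock array 4. On cocaine array 6, 6 of 7 lay below it and 5 had their lowest value. On shock array 5, 6 of 7 lay below it, but for Folr1, Kcne2, Clic6 and Aqp1 the deviation was only -0.039 to -0.012. Folr1 and Clic6 had there a value that other arrays shared.

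The order of the arrays was then compared gene by gene. The 7 arrays make 21 pairs, and a pair counts where a gene ranks its arrays as Ttr does, with ties not counted. Kl ranked 19 of the 21 pairs as Ttr did, Kcne2 17, Aqp1 16, Folr1 14, Clic6 11 and Otx2 10, against a median of 9 over all genes. Folr1 ranked 1 pair the opposite way, so that its lower count came from ties, while Clic6 ranked 7 the opposite way. At least 17 pairs were reached by 2 of the 6 members other than Ttr, and by 2.5% of all genes. Pearson's r with Ttr over the 7 arrays was 0.94 for Kl, 0.88 for Kcne2, 0.69 for Folr1, 0.68 for Aqp1, 0.58 for Otx2 and -0.43 for Clic6. These r values describe likeness and were not tested, because the Ttr levels fall into separate sets on either side of the gap. With the group means removed they were 0.96, 0.86, 0.63, 0.66, 0.49 and -0.41, with the same sign for all 6. Without cocaine arrays 6 and 7, the 2 farthest from the median of Ttr, r was 0.85 for Kl, 0.65 for Kcne2, 0.62 for Folr1, 0.90 for Aqp1, 0.55 for Otx2 and 0.16 for Clic6.

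The probe set that carries both Kcnj13, a potassium channel gene of the plexus, and Gigyf2, a translation regulator made in many cells, cannot be assigned to either gene. Its values were 6.26, 6.05, 5.15 and 4.90 on cocaine arrays 4, 5, 6 and 7 and 7.45, 5.52 and 6.16 on shock arrays 4, 5 and 6. It ranked all 21 pairs of arrays as Ttr did, over a span of 2.55 (5.84-fold).

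**Figure D2:**
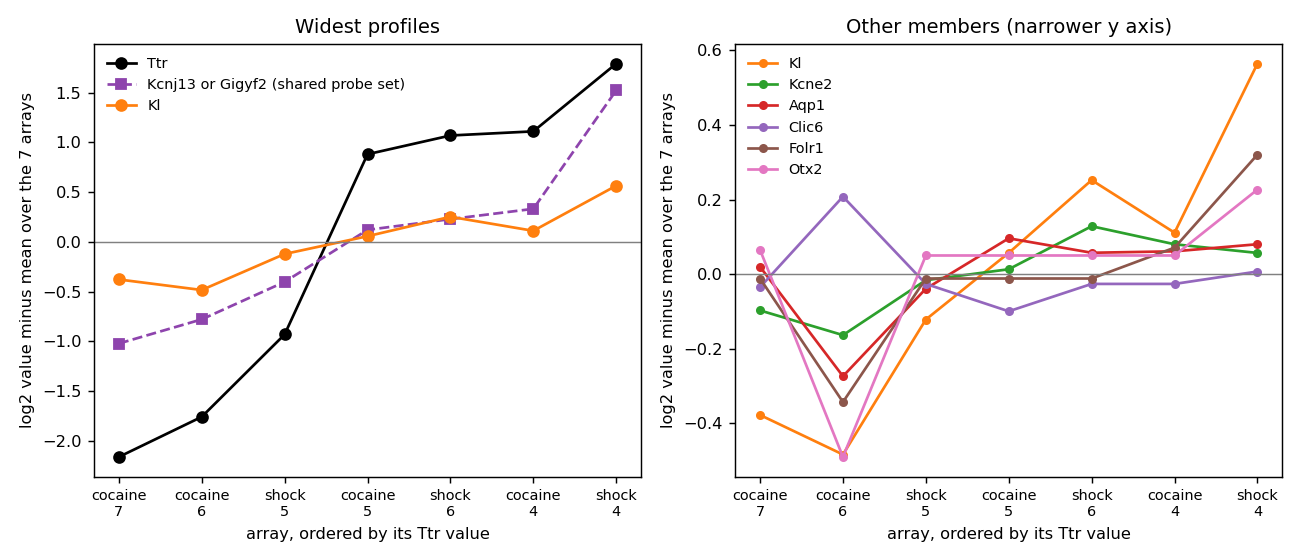
Log2 value minus the gene's mean over the 7 arrays (y axis), with the arrays ordered by Ttr (x axis); left, Ttr, Kl and the probe set shared by Kcnj13 and Gigyf2, right, the 6 members other than Ttr on a narrower axis. The shared probe set climbs with Ttr over all 7 arrays, Kl follows in 19 of 21 pairs, and cocaine array 6 is the low point of Kl, Kcne2, Aqp1, Folr1 and Otx2 and the high point of Clic6.

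Over all 22180 genes, the span of Ttr was the largest, ahead of the activity-regulated genes Npas4 (3.04) and Fos (2.68), against a median of 0.28. Within the cocaine group alone its span of 3.27 ranked first, and so did its span of 2.72 within the shock group. It also ranked first after quantile normalization (3.94), after median centring (3.93) and without each array in turn (3.27 to 3.95). The span of Kl ranked 425th, and a span above 1 was reached by 2.35% of genes. Otx2 (0.72) and Folr1 (0.66) had wider spans than 92.7% and 90.9% of genes, Aqp1 (0.37) than 66.5%, Clic6 (0.31) than 55.9% and Kcne2 (0.29) than 52.9%. Without cocaine array 6 the spans of Otx2 and Folr1 were 0.18 and 0.33. The members thus ran from the widest span of all genes to spans near the middle.

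**Figure D3:**
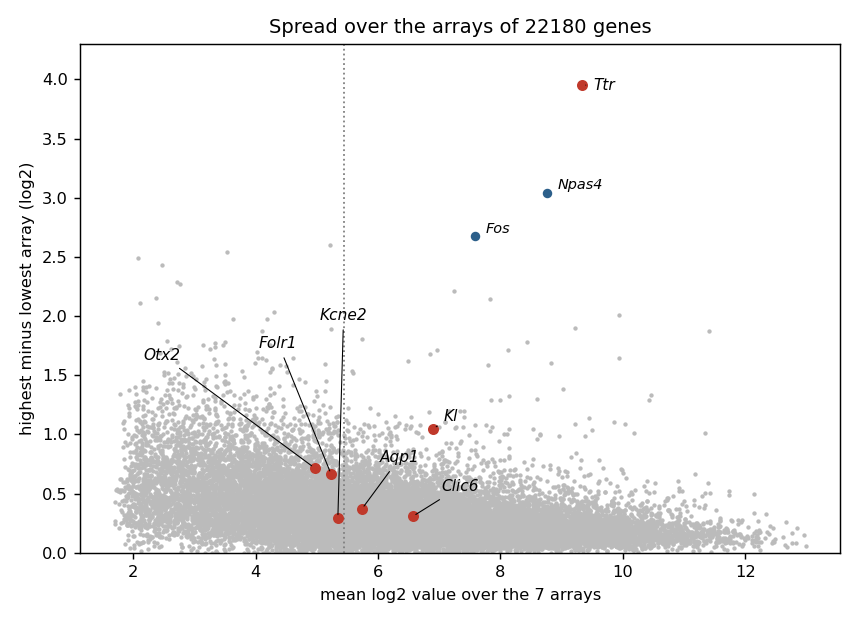
Highest minus lowest array on the log2 scale (y axis) against the mean log2 value over the 7 arrays (x axis) for 22180 genes (grey), with the choroid plexus genes in red, Npas4 and Fos in blue and the dim level dotted. Ttr has the largest span of all genes at 3.95, Kl lies at 1.05, Otx2 and Folr1 at 0.72 and 0.66, and the other 3 members lie between 0.29 and 0.37.

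The comparison of cocaine-activated with shock-activated cells is aimed at RNA under translation in cells tagged during a drug experience or a painful one. The members were set against the same grouping. For Ttr the cocaine mean was 8.85 ± 1.72 (SD, n = 4) and the shock mean 9.98 ± 1.41 (SD, n = 3). The difference of -1.13 (SE 1.05, 95% interval -3.63 to 1.38) was smaller than the spread within either group. An exact two-sided permutation test over the 35 splits of the arrays gave p = 0.4, where 0.0286 is the smallest p possible. Leaving out shock array 4 gave -0.55 for Ttr, leaving out shock array 5 gave -1.91, and leaving out cocaine array 7 or 6 gave -0.57 or -0.70. For Kl the cocaine mean was 6.73 ± 0.30 (SD, n = 4) and the shock mean 7.13 ± 0.34 (SD, n = 3). They differed by -0.41 (SE 0.21, 95% interval -0.91 to 0.10). Its unadjusted p was 0.0983, the smallest among the members, and its adjusted p was 0.938 (limma, over all genes). Without shock array 5 the difference of Kl was -0.58 (limma, unadjusted p = 0.0355), and without shock array 4 it was -0.24. How many of all genes had an unadjusted p under 0.05 without shock array 5 is not given here.

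Otx2 differed by -0.19, Folr1 by -0.17, Kcne2 by -0.098, Aqp1 by -0.057 and Clic6 by 0.027. Without cocaine array 6, Otx2 differed by -0.054, Folr1 by -0.083 and Kcne2 by -0.058, while Aqp1 turned to 0.026 and Clic6 to -0.039. The 95% intervals of all 7 members contained 0. A lower mean in the cocaine group was found for 6 of the 7 members, where 49.1% of all genes had one, and the median difference of the members was -0.17, against 0.0016 over all genes. That median was -0.058 without cocaine array 6. By limma, 0 of the 7 members passed an adjusted p of 0.05 over all genes (0.0% of all genes passed) and 0 had an unadjusted p under 0.05 (3.1% of all genes). The groups did not overlap for 0 members, against 2.37% of all genes. Where nothing says that arrays came from separate animals, these p-values measure only the spread between the arrays, which may be technical. In such bulk precipitates, fewer cells of a type and less RNA per cell cannot be told apart.

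**Figure D4:**
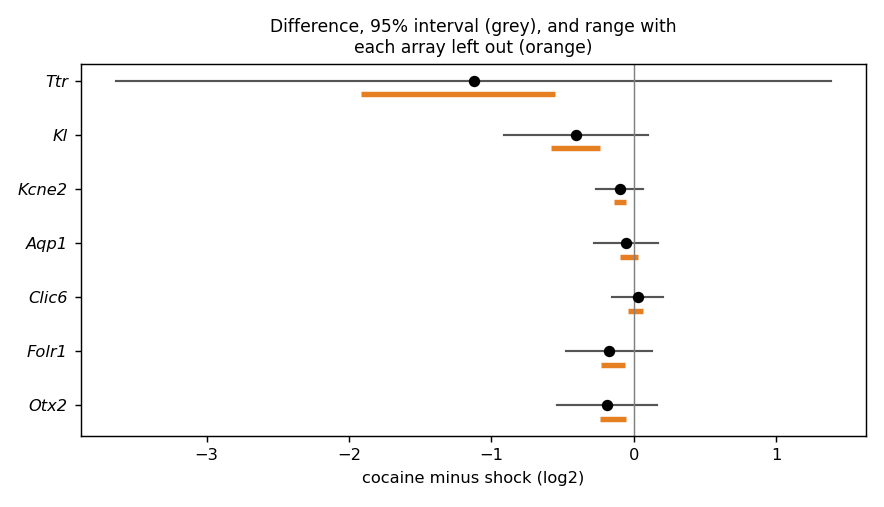
Cocaine minus shock on the log2 scale (x axis) for the 7 measured members, with the limma 95% interval in grey and, in orange, the range of the difference when each array is left out in turn. All 7 intervals contain 0, and the orange ranges of Aqp1 and Clic6 cross it.

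Further genes of the plexus epithelium were read from a list of 32, of which 28 were measured and 17 lay above the dim level. At least 17 of the 21 pairs were ranked as by Ttr in 6 of the 28, against the 2.5% of all genes given above. These 6 were the bicarbonate cotransporter gene Slc4a5 and Tmem72 (20 pairs each), the secreted BMP and Wnt antagonist gene Sostdc1, the tight junction gene Cldn2 and the lipopolysaccharide-binding protein gene Lbp (19 each), and the glucose transporter gene Slc2a12 (18), all 6 chosen after their values were seen. Slc4a5 measured 5.58, 5.43, 4.86 and 4.82 on cocaine arrays 4, 5, 6 and 7 and 5.69, 5.23 and 5.32 on shock arrays 4, 5 and 6, and its r with Ttr was 0.95. Tmem72 measured 5.25, 5.07, 4.91 and 4.64 on cocaine arrays 4, 5, 6 and 7 and 5.64, 4.97 and 5.07 on shock arrays 4, 5 and 6. In both genes cocaine array 7 was lowest and shock array 4 highest, as for Ttr. Both were dim, as were Cldn2 and Slc2a12. At the other end of the list, Steap1 ranked 4 pairs as Ttr did and Cldn3, Wfikkn2 and Slco1a5 ranked 6 each.

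Between the groups, 19 of these 28 genes had a lower mean in the cocaine group, with a median difference of -0.031. Without shock array 4 these were 12 of 28 and 0.0092, and without shock array 5 they were 23 of 28 and -0.13. None of the 28 passed the adjustment over all genes (limma). With a lower cocaine mean and an unadjusted p under 0.05 there was 1, Ace, the angiotensin-converting enzyme gene (difference -0.12, limma unadjusted p = 0.046), where 1.57% of all genes met both conditions. Lbp differed by -0.26 and the growth factor binding protein gene Igfbp2 by -0.20.

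The pathways of the members were read with the members themselves left out. Of 11 measured genes of ion and water transport in CSF secretion, 9 had a lower mean in the cocaine group, with a median of -0.017. The sodium-potassium-chloride cotransporter gene Slc12a2 differed by -0.10 and the carbonic anhydrase gene Car2 by -0.095. Of 15 genes that handle thyroid hormone, retinoids and folate, 12 were lower in mean, with a median of -0.040. Among them Stra6, the receptor for retinol-binding protein, differed by -0.20 (unadjusted p = 0.0314 by limma), the folate receptor gene Folr2 by -0.12 and the retinoic acid-binding protein gene Crabp1 by 0.20. Of 12 genes around klotho and lysophosphatidic acid, the product of the Enpp2 enzyme, 9 were lower in mean, with a median of -0.044. The lysophosphatidic acid receptor gene Lpar4 differed by -0.33 (unadjusted p = 0.0215 by limma) and Adam10, a protease that can release klotho from the membrane, by -0.12. Close relatives of the members, such as other aquaporins and CLIC channels, had a lower mean in 25 of 28, with a median of -0.071 (Aqp4 -0.18, Clic5 -0.17). Of these 28 relatives, 18 lay above the dim level. Over all genes, 49.1% had a lower mean in the cocaine group. No gene of these 4 lists passed the adjustment over all genes (limma, smallest adjusted p = 0.938), and 2 of their 64 genes had an unadjusted p under 0.05, Stra6 and Lpar4, a share of 3.12% against 3.1% of all genes. With each array left out the medians ran from -0.036 (without shock array 5) to -0.015 for ion and water transport, from -0.062 (without cocaine array 6) to -0.041 for hormones, retinoids and folate, and from -0.073 (without shock array 4) to -0.034 for klotho and lysophosphatidic acid.

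The genes most like Ttr were taken by r from 1142 genes that were no members, lay above the dim level and had a span of at least 0.5. The highest 8 were Tmco6 (r = 0.93), the guanylate-binding protein gene Gbp7 (0.92), the small GTPase gene Rras (0.91), the phospholipid enzyme gene Chpt1 (0.91), the homeobox gene Prrx2 (0.89), the sphingomyelin synthase gene Sgms2 (0.89), the growth factor gene Igf2 (0.89) and Minar2 (0.87). Igf2, which both plexus and meninges make, ranked 20 of the 21 pairs as Ttr did, the most among the 8. It measured 8.07, 8.03, 7.87 and 7.73 on cocaine arrays 4, 5, 6 and 7 and 8.43, 8.02 and 8.23 on shock arrays 4, 5 and 6. These genes spanned 0.54 to 0.85, far less than Ttr.

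Genes of tissues and cells that adjoin the plexus or lie in the mPFC were summed to a score per array, by centring each gene on its mean over the 7 arrays and averaging the centred values of a list. The other plexus genes scored from -0.096 to 0.17 and ranked 18 of the 21 pairs of arrays as Ttr did. The score of the 18 ependymal genes, which mark the ciliated lining of the ventricles, ranged from -0.057 to 0.052 in the cocaine group and from -0.14 to 0.077 in the shock group. That score ranked 17 of the 21 pairs as Ttr did. Over all arrays it ran from -0.14 to 0.077, a width close to that of the other plexus genes (-0.096 to 0.17). Foxj1, the master regulator of motile cilia, measured 5.20 on cocaine array 6 and between 5.66 and 5.73 on the other 6 arrays. Of the 18, 11 were above the dim level, and their median difference of -0.0032 was positive after quantile normalization (0.0091) and median centring (0.0081). With each array left out it ran from -0.055 (without shock array 5) to 0.017 (without cocaine array 7). The cilia genes Fam183b, Ak7 and Dnah11 differed by 0.17, 0.17 and -0.10. Without shock array 5 the first 2 differed by 0.069 and 0.043, and without cocaine array 6 Dnah11 differed by -0.042. Meningeal and fibroblast genes scored -0.15 to 0.013 in the cocaine group and -0.020 to 0.21 in the shock group, with a lower cocaine mean in 15 of 16 and a median of -0.19, which was -0.11 without shock array 6. In that list the matrix gene Dcn measured 7.81 and 8.11 on shock arrays 4 and 6, against 6.97 to 7.40 on shock array 5 and the cocaine arrays. The GABA transporter gene Slc6a13 differed by -0.23, Igf2 by -0.30 and the prostaglandin synthase gene Ptgds by -0.22. Endothelial genes scored -0.31 to 0.016 against 0.071 to 0.20, with 15 of 15 lower in mean and a median of -0.22 (Slco1a4 -0.48, Abcb1a -0.26, Cdh5 -0.30), and 6 of the 15 had a lower mean with an unadjusted p under 0.05 by limma, against 1.57% of all genes. Without cocaine array 7 the endothelial median was -0.14 and that count 2. The count was 3 without cocaine array 4 and likewise without shock array 6. The astrocyte list had 13 of 13 lower in mean with a median of -0.13 (Gja1 -0.23, Sox9 -0.20), which was -0.20 without cocaine array 5. Without cocaine array 7 the astrocyte median was -0.11, with 11 of 13 lower. The meningeal and endothelial scores ranked 14 of 21 pairs as Ttr did, and the astrocyte score 10. None of these genes passed the adjustment over all genes. The part of these cells in the Ttr and Kl values was not tested.

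**Figure D5:**
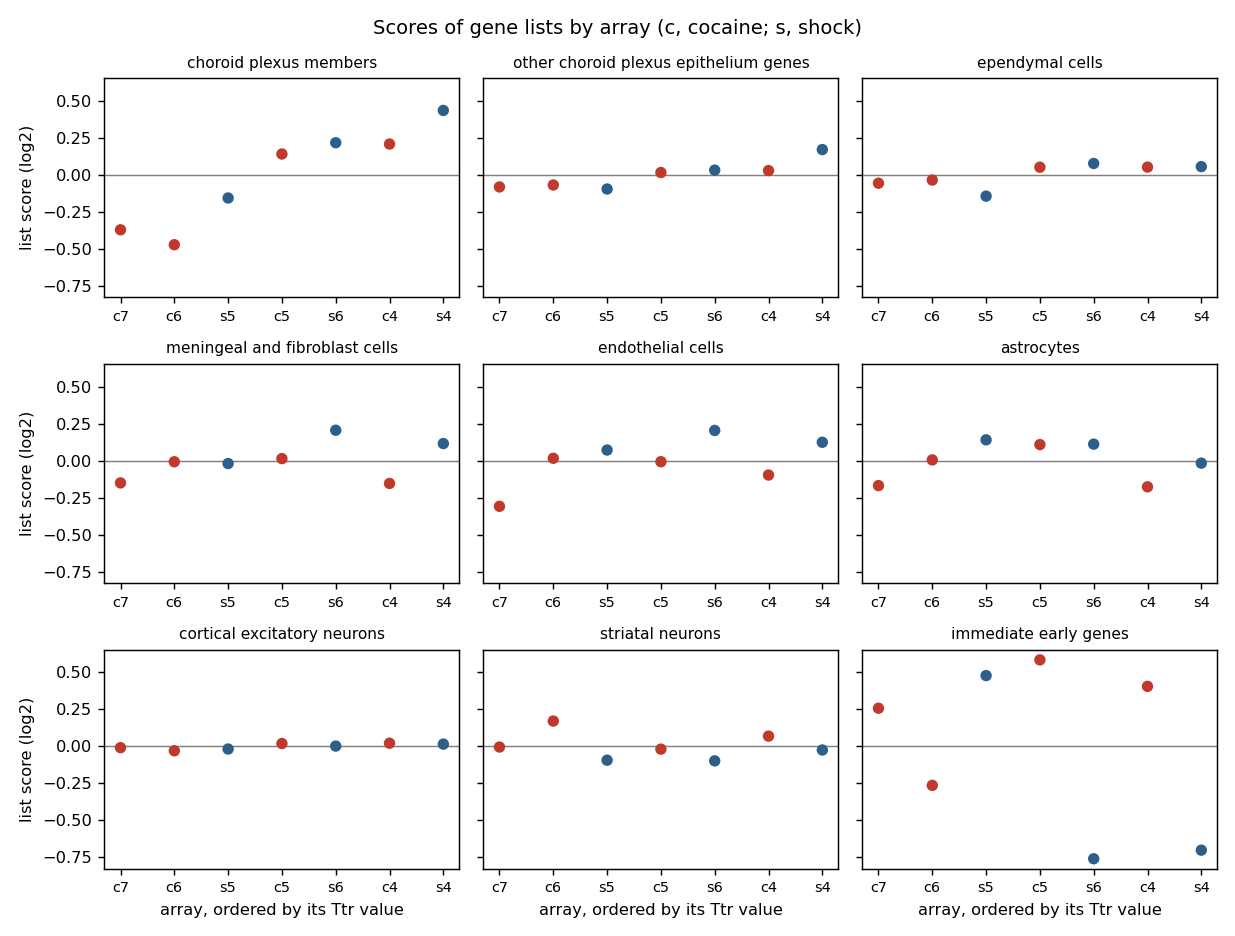
Score of 9 gene lists (y axis, log2, mean of centred values) on each array, ordered by its Ttr value (x axis); c4 to c7 are cocaine arrays (red) and s4 to s6 shock arrays (blue). The member score, to which Ttr adds the widest span, runs from -0.47 to 0.44, the ependymal score from -0.14 to 0.077, and the excitatory score from -0.030 to 0.021.

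Cortical excitatory neurons, the main cell class of the mPFC, scored from -0.030 to 0.021 over all arrays, and their 10 measured markers were all above the dim level. Even so, that score ranked 16 of 21 pairs as Ttr did, so that a count of pairs alone says nothing of size. Of the 10, 5 had a lower and 5 a higher mean in the cocaine group. Slc17a7, their glutamate transporter gene, differed by 0.081, and Rorb, another of these markers, by -0.11. Genes of nearby regions gave medians of 0.14 for the striatum (2 of 9 lower in mean in the cocaine group, Drd1 0.33), 0.00087 for the thalamus (4 of 9), -0.12 for the septum (8 of 8) and -0.074 for the dentate gyrus (5 of 7). Only 4 of the 8 septal and 4 of the 7 dentate gyrus genes lay above the dim level, and the others rest on signals near background. The medians of inhibitory neuron, oligodendrocyte and microglia markers were -0.093, 0.057 and -0.025. In the striatal list 3 of the 9 had a higher cocaine mean with an unadjusted p under 0.05 by limma. Over all genes, 3.1% had such a p in either direction. With each array left out, that striatal count was 2 to 4, and the striatal median stayed between 0.11 and 0.16. The septal median stayed between -0.14 and -0.091. Several of the other medians rest on single arrays. With each array left out, the thalamic median ran from -0.017 to 0.028 and the excitatory one (0.0024 over all arrays) from -0.016 to 0.014. The dentate gyrus median ran from -0.12 (without cocaine array 5) to -0.0047 (without cocaine array 7), and the inhibitory one from -0.14 to -0.053 (without shock array 6). The oligodendrocyte median was -0.0084 without cocaine array 7, and the microglia median 0.0036 without cocaine array 4 and -0.053 without shock array 4. Whether the RNA of immediate early genes came from tagged cells was not tested. These activity-regulated genes had a higher mean in the cocaine group in 13 of 13, with a median of 0.50. That median was 0.20 without shock array 4, 0.32 without cocaine array 5 and 0.90 without shock array 5. Their score was 0.41 on cocaine array 4 and 0.58 on cocaine array 5, where Ttr was high, and -0.70 and -0.76 on shock arrays 4 and 6, where Ttr was high as well. Where Ttr was low, the score was 0.48 on shock array 5, 0.26 on cocaine array 7 and -0.26 on cocaine array 6. In the shock group the array with low Ttr was thus the one with the high score. Over both groups, high and low Ttr each occurred with high and with low immediate early gene scores. The score ranked 9 of the 21 pairs of arrays as Ttr did.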

How the data were processed

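RNA from anti-GFP ribosome precipitates was measured on 7 arrays. The values deposited by the authors were used as log2 expression, a scale read from the values (1.12 to 13.44). Transcriptome Analysis Console is the tool in the submitters' processing notes. How probes were summarized and normalized, and the build, is not given in the sources used here. Of 41345 probe sets, 23521 had 1 gene symbol in the platform annotation, 1814 several and 16010 were not listed. Where a gene had several, the probe set of highest mean was taken (22180 genes). Differences are cocaine minus shock, fitted with limma 3.58.1 in R 4.3.3 (lmFit, eBayes, two-sided, no covariate) with Benjamini-Hochberg adjustment over all genes. Ttr was also tested with an exact permutation. Planned tests of correlations with Ttr were not made, since its values fall into separate sets. Members, lists and alternatives were chosen with earlier results of these data known. Named genes were the members, up to 3 per list of smallest unadjusted p, the 8 most like Ttr, and those marked as chosen later; not every gene the rule allowed is named. The fit was repeated with array weights, with the title number as a block, without moderation, with trend and robust moderation, on quantile-normalized or median-centred values, on averaged probe sets, without dim genes and without each array in turn. Scripts were tested on simulated data. Arrays give no read depth, and their number limits the precision.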

Additional observations from a re-analysis of the deposited data

Results flagged for a closer look

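Within the 4 cocaine arrays, a sample far from the others was found for 4 of 64 measures tested (gap to the nearest array as a share of the range, above Dixon's 95% limit for 4 arrays). Otx2 was lowest on array 6 (4.47, gap 0.9731), where Dnah11 was lowest as well (gap 1.0) and Crabp1 highest (gap 0.8651). Sostdc1 was lowest on array 7 (6.10, gap 0.9166). Chance passes about 5% of independent measures, here 3.2, and each of these genes had the same value on at least 2 of the 4 arrays. The shock group has 3 arrays and was not tested this way.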

How the results depend on the processing

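No member and no gene passed the adjusted threshold under any of the 15 alternatives (limma, 0 in each). The count of members at an unadjusted p under 0.05 was 0 in all but 1, without shock array 5, where it was 1 (Kl). The share of all genes under that p in the same fit is not given here, so this count is not read as a result about Kl. With each array left out, the Ttr difference ranged from -1.91 to -0.55, the median difference of the members from -0.22 to -0.058 and their median r with Ttr from 0.60 to 0.85 (0.69 with all arrays). Of 44 single genes, 40 kept their sign throughout, but 32 moved by over 1.5 times under at least 1 alternative. Clic6 ranged from -0.039 to 0.064, Aqp1 from -0.097 to 0.026, Cldn2 from -0.24 to 0.034 and Sostdc1 from -0.19 to 0.0043 with each array left out. With array weights Clic6 was -0.012; the cause was not tested. The deviations of same-numbered arrays from their group means had correlations of 0.13, 0.064 and 0.16 for numbers 4, 5 and 6. Arrays of different numbers were not compared, so these values cannot decide whether the numbers mark pairs. The main fit used no pairing. With the title number as a replicate block, 0 genes passed, the median of the members was -0.19, Ttr differed by -0.57 and Sostdc1 by 0.0043. The block gives cocaine array 7, which has no partner, no weight in the difference. Members under the dim level rest on signals near background.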
